A study of Mus musculus with 16 samples.

Results

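TRBV31 is a variable segment of the mouse T cell receptor beta chain locus, and its name in older nomenclature is Vβ14. Its members here were the cells whose productive beta (TRB) chain with the most unique molecular identifiers (UMIs, tags that count captured transcripts) was deposited with the V segment TRBV31. They numbered 146 of 5760 cells with a TRB chain (2.53%), in 137 of 3876 clonotypes (3.53%), where a clonotype is the V segment, J segment and CDR3 nucleotides of a chain counted once per library. The segment was chosen on its share of cells and clonotypes at day 14 and day 5 in these same libraries, so the difference between days, the clone sizes and what is measured against those shares are given as a description, with no test. The contrast of genotypes is tested, in a fit over all segments.

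The cells came from liver tumours grown from Hepa1-6, a mouse hepatoma line, injected into the left lobe of the liver in C57BL/6 mice, and were sampled at day 5 or day 14. CON mice were CD4cre Matr3 WT/WT and KO mice CD4cre Matr3 fl/fl, so each genotype carried the Cre recombinase, under the Cd4 promoter, and the KO group also carried floxed alleles of Matr3, the gene of the nuclear RNA-binding and DNA-binding protein matrin 3. Cd4-driven Cre acts in developing thymocytes that pass a CD4-expressing stage, so CD8 as well as CD4 T cells are affected. There were 8 T cell receptor libraries, 2 in each of 4 groups. Nothing in the labels tells if a group's pair of libraries represents different animals, and p-values therefore measure only the spread between libraries, which may be technical. The receptor files hold no measure of Matr3, so the genotype labels were not checked. Libraries held 474 to 1404 called cells and 7683 to 31936 UMIs in productive chains. TRBV31 chains rested on 3 to 79 UMIs, with a median of 9. Among 5908 called cells, 21 barcodes occurred in more than 1 library, and 1 TRBV31 cell sat on such a barcode.

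A T cell builds its beta chain gene by joining a D to a J segment and then a V segment to that DJ, with bases lost and added at each joint; the joint encodes CDR3, the loop that meets the antigenic peptide. Nearly all V segments of the locus lie upstream of the D and J segments and join by deleting the DNA between. TRBV31 lies downstream of the second constant region in the opposite orientation and joins by inversion. In RefSeq on GRCm38, Trbv31 spans chromosome 6, 41557693 to 41558371, and it is the only one of 35 listed Trbv genes that is not upstream of Trbd1. The Trbj1 cluster, paired with Trbd1, lies farther from it than the Trbj2 cluster, paired with Trbd2: 23.8 kb from the end of Trbj1-1 and 13.8 kb from the end of Trbj2-7. Its nearest upstream V gene, Trbv30, ends 276 kb away.

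Sequences at the V end show what all members share and where they differ. The CDR1 and CDR2 coding sequences, the germline loops that mainly meet the MHC molecule, were the same in 146 of 146 TRBV31 cells and occurred in 0 cells with another TRBV call. The CDR3 start is read 5′ to 3′. Each next base in it was held by 70% or more of the TRBV31 clonotypes that matched all bases before it.
TRBV31 CDR1: gggaaatcaagccctaac
TRBV31 CDR2: tctattactgttggc
TRBV31 CDR3 start: tgtgcctggagtc
TRBV3 CDR3 start, for comparison: tgtgccagcagc
The first codons of the TRBV31 start read Cys-Ala-Trp, where TRBV3 reads Cys-Ala-Ser. Tryptophan stood at position 3 of the CDR3 in 135 of 137 TRBV31 clonotypes (98.5%). Among 3739 other clonotypes, serine stood there in 3350 (89.6%). At position 4 serine was found in 107 TRBV31 clonotypes (78.1%), and at position 5 the most frequent residue was leucine, in 53 (38.7%).

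TRBV31 took a smaller share of the TRB cells at day 14 than at day 5 in every library of each genotype. At day 5 the share was 4.77% (28 of 587 cells, exact 95% binomial interval 3.19% to 6.82%) and 3.27% (24 of 735, 2.10% to 4.82%) in the CON libraries. In the day 5 KO libraries it was 4.18% (23 of 550, 2.67% to 6.21%) and 4.98% (23 of 462, 3.18% to 7.38%). At day 14 it was 1.55% (21 of 1357, 0.960% to 2.36%) and 1.5% (12 of 798, 0.779% to 2.61%) in CON, and 1.10% (6 of 546, 0.404% to 2.38%) and 1.24% (9 of 725, 0.569% to 2.34%) in KO. The lowest day 5 library lay above the highest day 14 library. The means were 4.30% ± 0.767 (SD, n = 4) and 1.35% ± 0.214 (SD, n = 4), and the log2 fold change of the share in edgeR's fit, day 14 over day 5, was -1.65 ± 0.34 (SE). In that contrast edgeR called 10 of 98 V and J segments in either direction (10.2%) and 7 of 98 lower (7.14%), with a median log2 fold change of 0.05. These intervals cover counting error only.

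Counted by clonotype, the difference between days was smaller. TRBV31 made up 4.78% (27 of 565) and 3.22% (21 of 652) of TRB clonotypes in the day 5 CON libraries, and 4.40% (23 of 523) and 4.86% (22 of 453) in the day 5 KO libraries. At day 14 it made up 3.04% (18 of 593) and 3.02% (11 of 364) in CON, and 1.99% (6 of 301) and 2.12% (9 of 425) in KO. The 2 days still did not overlap, but the day 5 CON library of lowest share lay close to both day 14 CON libraries. The log2 fold change was -0.69 ± 0.26 (SE). Day 5 libraries also held many iNKT-type cells (invariant natural killer T, recognised here by TRAV11 joined to TRAJ18). Without those cells the TRBV31 share was 5.18% ± 0.780 (SD, n = 4) of TRB cells at day 5 and 1.39% ± 0.216 (SD, n = 4) at day 14, and the log2 fold change was -1.86 ± 0.31 (SE).

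**Figure D1:**
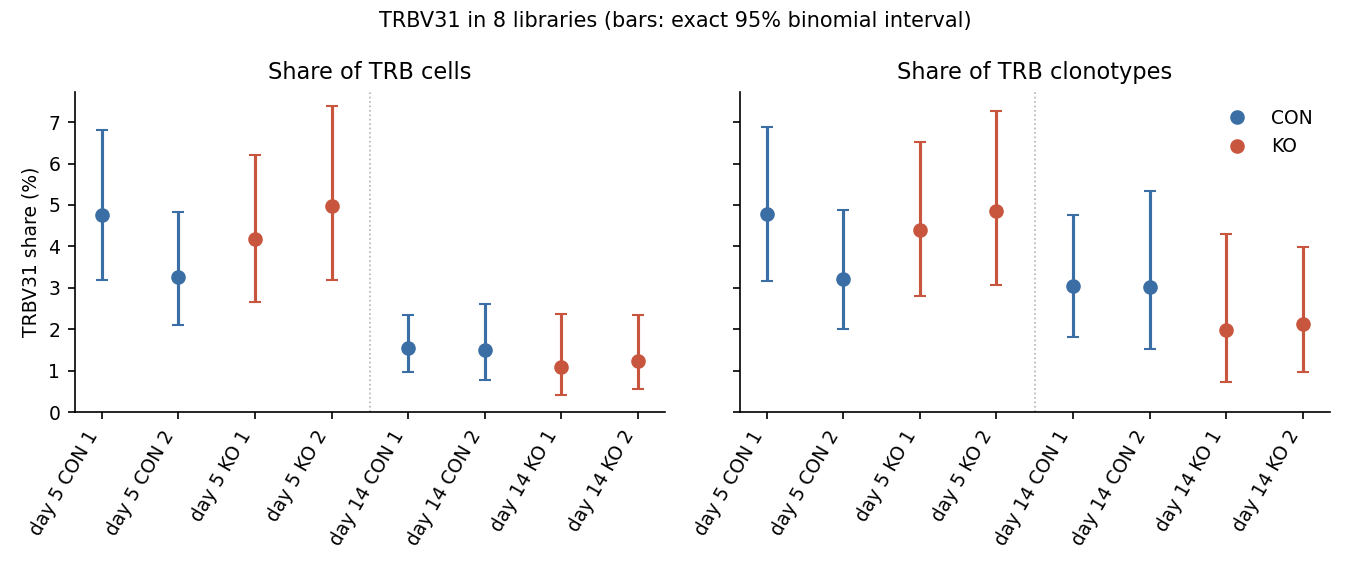
TRBV31 share in percent (vertical axis) of TRB cells (left) and TRB clonotypes (right) in each library (horizontal axis, group and replicate number). Points are libraries, blue for CON and red for KO, and bars are exact 95% binomial intervals. Day 5 libraries lie at 3.27% to 4.98% of cells and day 14 libraries at 1.10% to 1.55%, while by clonotype the days come as near as 3.22% and 3.04%.

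KO and CON libraries were not told apart in TRBV31 share. The share in KO over CON had a log2 fold change of 0.19 ± 0.47 (SE) at day 5 (edgeR's quasi-likelihood test, adjusted p = 0.979) and -0.37 ± 0.51 at day 14 (edgeR, adjusted p = 0.709). At day 14 both KO libraries lay below both CON libraries, while at day 5 the groups overlapped. Over both days the log2 fold change was -0.07 ± 0.33 (edgeR, adjusted p = 0.955), and the interaction of genotype and day was -0.57 ± 0.69 (edgeR, adjusted p = 0.901). In each of these 4 contrasts edgeR called 0 of 98 segments (0%), and DESeq2 called 0. At an unadjusted p under 0.05 edgeR had 0 segments at day 5, 11 at day 14, 5 over both days and 4 for the interaction. In each contrast the standard error was larger than the difference itself.

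In the order of mean shares TRBV31 stood at rank 10 of 22 TRBV names at day 5 and at rank 19 at day 14. At day 5 it lay between TRBV16 (4.32% ± 1.08, SD, n = 4) and TRBV12-2 (3.49% ± 0.768), and the libraries of all 3 overlapped. At day 14 it lay between TRBV15 (1.67% ± 0.735, SD, n = 4) and TRBV23 (0.978% ± 0.432), and again each neighbour's range, 0.966% to 2.63% and 0.414% to 1.47%, overlapped that of TRBV31. Its neighbour by position TRBV30 was rare, with 5 cells in all. The next one upstream, TRBV29, had a mean of 5.30% of TRB cells at day 5 and 2.94% at day 14. Over the 8 libraries the log2 shares most like those of TRBV31 were those of TRBV13-2 (Pearson r = 0.95), of the joined call TRBV12-2+TRBV13-2 (r = 0.94) and of TRBV29 (r = 0.81). All 3 were lower at day 14, and since the 8 points fall into the 2 days, these values mainly describe that step.

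Few TRBV31 cells belonged to expanded clonotypes, those of 2 or more cells with the same TRB chain in a library. At day 5 such cells made up 7.14% and 16.7% of TRBV31 cells in the CON libraries and 0% and 8.70% in KO, beside 2.96% to 16.5% of the other TRB cells. At day 14 they made up 23.8% and 16.7% of TRBV31 cells in CON and 0% and 0% in KO (0 of 6 and 0 of 9 cells). Other TRB cells at day 14 were in expanded clonotypes at 52.8% to 66.8%, so each of the 4 libraries had a lower value for TRBV31 than for the rest. Pooled over day 14, 7 of 48 TRBV31 cells (14.6%) and 2075 of 3378 other cells (61.4%) were in expanded clonotypes. There were 1.09 TRBV31 cells per clonotype. Clonotypes of 10 or more cells held 1121 of the 3426 TRB cells at day 14 and 0 TRBV31 cells. Among 21 TRBV names with at least 20 cells at day 14, TRBV13-2 had the lowest expanded share, 8% of 25 cells, and TRBV31 was next. The highest was that of TRBV5, at 81.6% of 315 cells. This order is by name as deposited. The joined call TRBV12-2+TRBV13-2, counted apart from TRBV13-2, had 29.3% of 242 cells, so the place of TRBV13-2 depends on that split.

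**Figure D2:**
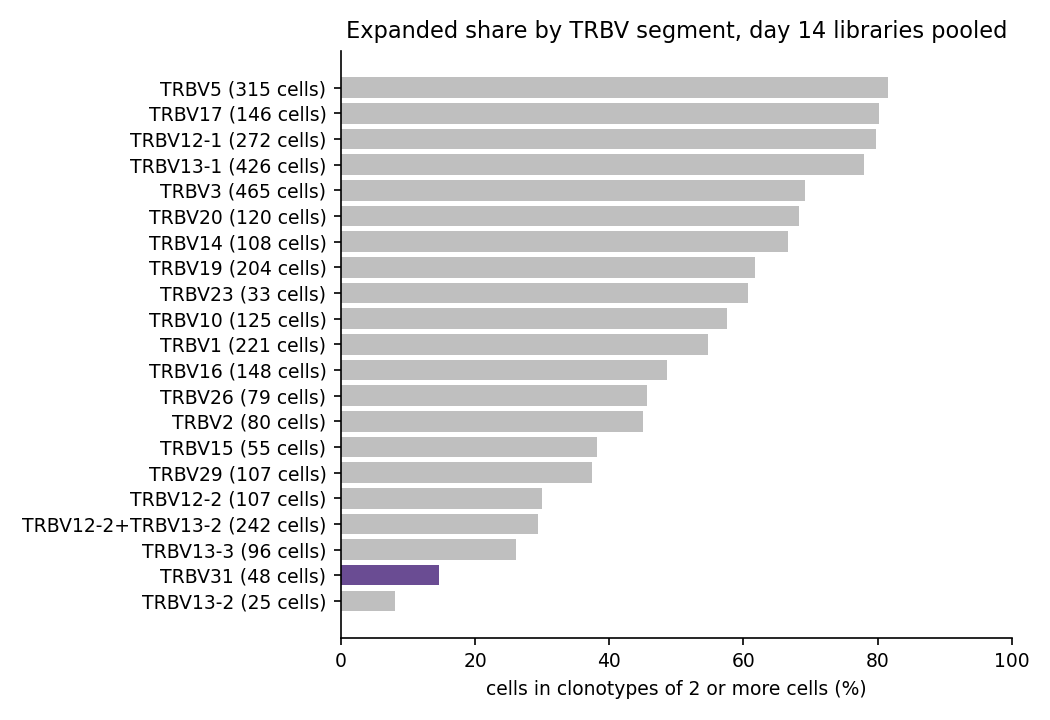
Share of cells in clonotypes of 2 or more cells (horizontal axis, percent) for each TRBV name with 20 or more cells at day 14 (vertical axis, number of cells in parentheses), over the 4 day 14 libraries pooled. TRBV31, in purple, has 14.6% of 48 cells, between TRBV13-2 at 8% and TRBV13-3 at 26%. The joined call TRBV12-2+TRBV13-2 has a bar of its own, at 29.3% of 242 cells.

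The 6 expanded TRBV31 clonotypes are shown because they include the largest of each library that had one. Each line is the CDR3 from the conserved cysteine codon to the last CDR3 codon, 5′ to 3′. Lower case marks the ends that match the TRBV31 start and the common end of the J segment, and capitals mark the central junction between them. The ends are a consensus and not germline sequence, so the capitals can hold V and J bases beside D-derived and added ones.
day 5 CON replicate 2, TRBJ2-4, 4 cells: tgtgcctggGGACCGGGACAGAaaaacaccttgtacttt
day 14 CON replicate 1, TRBJ1-3, 3 cells: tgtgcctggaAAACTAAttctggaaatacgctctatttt
day 14 CON replicate 1, TRBJ1-1, 2 cells: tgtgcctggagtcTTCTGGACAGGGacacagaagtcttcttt
day 14 CON replicate 2, TRBJ2-5, 2 cells: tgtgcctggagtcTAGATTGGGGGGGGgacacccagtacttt
day 5 CON replicate 1, TRBJ2-3, 2 cells: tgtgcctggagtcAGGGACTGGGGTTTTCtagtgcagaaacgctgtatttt
day 5 KO replicate 2, TRBJ2-7, 2 cells: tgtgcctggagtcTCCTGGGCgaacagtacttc
They used 6 different J segments, and their central junctions ran from 7 to 16 bases. The alpha chain was TRAV6-5 with TRAJ12 for the clonotype of 3 cells. TRAV4-4 was the alpha V segment of 3 of the others, with TRAJ31, TRAJ53 and TRAJ39, and TRAV17 with TRAJ57 that of the TRBJ2-3 clonotype, while no alpha chain was listed for the clonotype of 4 cells. In the remaining libraries, day 5 KO replicate 1 and both day 14 KO libraries, every TRBV31 clonotype was a single cell. None of the 137 TRBV31 CDR3 amino acid sequences occurred in more than 1 library. The same count for other TRB clonotypes is not given here, so this is not read as a trait of TRBV31.

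TRBV31 clonotypes used the TRBJ1 cluster more often than other TRB clonotypes did, and this measure had no part in choosing the segment. At day 5 TRBJ1 segments were found in 51.9% and 38.1% of TRBV31 clonotypes in CON and in 56.5% and 45.5% in KO. At day 14 they were found in 50% and 45.5% in CON and in 50% and 44.4% in KO. Other clonotypes of the same libraries had 29.2% to 34.7%, so TRBV31 was higher in 8 of 8 libraries and the 2 ranges did not overlap. The means were 47.7% ± 5.59 and 32.5% ± 2.07 (SD, n = 8), and the difference was 15.2 percentage points ± 6.36 (SD; two-sided exact permutation of signs, p = 0.0078, the smallest that 8 libraries can give; adjusted p = 0.0469 over 6 measures). Among the 20 TRBV names with 40 or more cells, the TRBJ1 share of TRBV31 was the highest, followed by TRBV1 (40.5% ± 8.88, SD, n = 8) and TRBV12-2+TRBV13-2 (40% ± 3.36). That order is a description. The TRBJ1 share of TRBV31 clonotypes was 48.0% ± 8 (SD, n = 4) at day 5 and 47.5% ± 2.94 at day 14 (exact permutation within genotype, p = 0.833), and 46.4% ± 6.12 in CON and 49.1% ± 5.50 in KO (exact permutation within day, p = 0.667). Those tests have 36 relabelings each and cannot go below 0.0556.

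No single TRBJ segment passed the threshold among the 12 tested (0%), each by the same permutation of signs. TRBJ2-7, the most used segment of other clonotypes, differed most: it was found in 9.56% ± 7.28 of TRBV31 clonotypes and in 22.2% ± 1.63 of the others (SD, n = 8), and was lower in 8 of 8 libraries (exact p = 0.0078, adjusted p = 0.0938 over 12 segments). A segment alone at the smallest p cannot pass the adjustment over 12. TRBJ2-4 was found in 3.56% ± 4.17 of TRBV31 clonotypes and 9.22% ± 1.95 of the others (exact permutation p = 0.0234, adjusted p = 0.141). TRBJ1-3 was found in 9.46% ± 6.36 and 5.36% ± 1.36 (exact permutation p = 0.109, adjusted p = 0.438). All 6 TRBJ1 segments had a higher mean in TRBV31 clonotypes, by 1.05 to 4.1 percentage points, while of the 6 TRBJ2 segments TRBJ2-2 and TRBJ2-5 had a higher mean and 4 a lower one. With 6 to 27 TRBV31 clonotypes per library, each of these shares rests on few clonotypes. No TRBV31 clonotype had TRBJ2-7 in day 14 CON replicate 2 and day 14 KO replicate 1. None had TRBJ2-4 in day 5 CON replicate 1, day 14 CON replicate 2 and both day 14 KO libraries, or TRBJ1-3 in day 14 KO replicate 2. Such an absence fixes the sign of the difference in that library. The p-values of single segments and the 8 of 8 libraries are therefore not read as support.

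**Figure D3:**
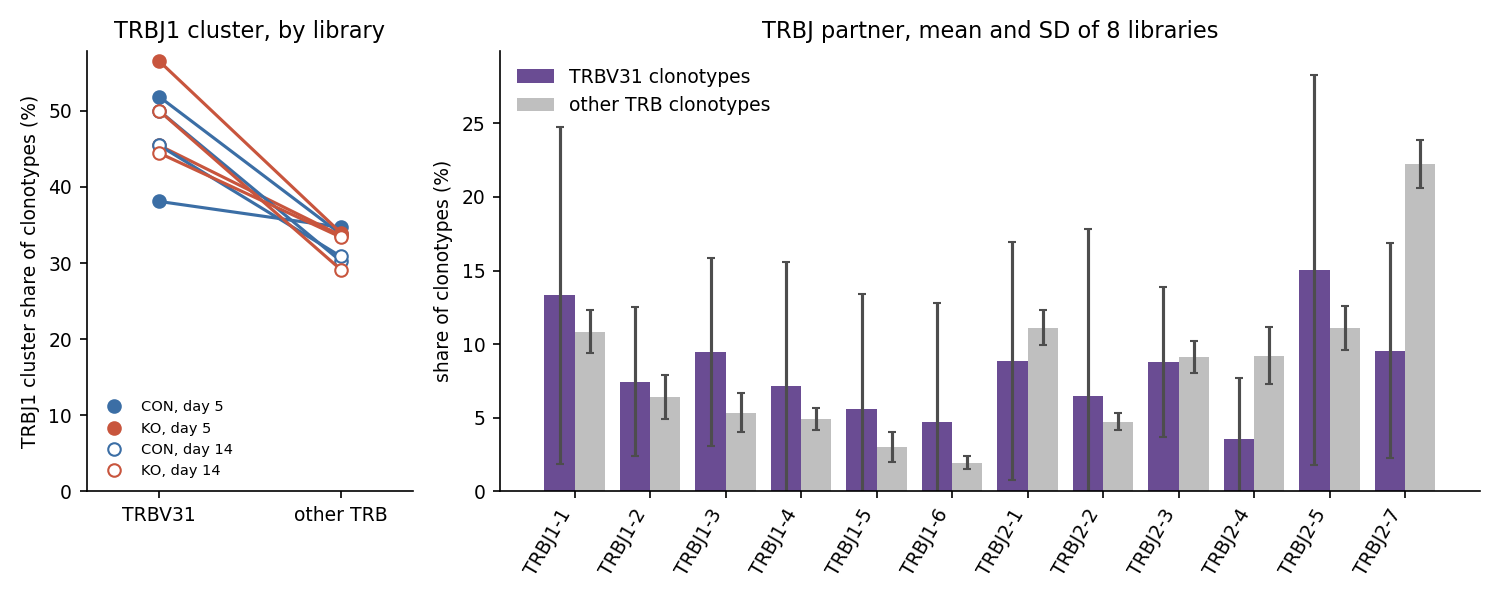
Left, share of clonotypes with a TRBJ1 segment (vertical axis, percent) for TRBV31 and other TRB chains, with a line for each library, blue for CON and red for KO, filled for day 5 and open for day 14. Right, share of clonotypes with each TRBJ segment (vertical axis, percent), as mean and SD of 8 libraries, purple for TRBV31 and grey for other chains. All 8 lines fall from TRBV31 to the other chains, and TRBJ2-7 shows the widest gap, 9.56% against 22.2%.

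D segments were named for 27 of the 137 TRBV31 clonotypes (19.7%) and for 883 of the 3739 others (23.6%). Of the 27, TRBD1 was named in 18, 12 of them with a TRBJ1 and 6 with a TRBJ2 segment. TRBD2 was named in 9, all with a TRBJ2 segment. TRBD2 lies downstream of the TRBJ1 cluster, so a deletional D to J join cannot link them, and 2 of the 883 other calls had that pair. The share of TRBD1 among named D segments did not differ beyond the spread (63.1% ± 34.6 for TRBV31 and 65.9% ± 2.53 for others, SD, n = 8; exact permutation p = 0.859, adjusted p = 0.859). It rested on 1 to 7 TRBV31 clonotypes per library.

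CDR3 length and the size of the joint were near those of other beta chains. TRBV31 CDR3s had 10 to 17 residues with a median of 14, and 54 of 137 (39.4%) had exactly 14, beside 31.5% of the others. The mean per library was 13.7 ± 0.317 residues for TRBV31 and 13.9 ± 0.0793 for other clonotypes (SD, n = 8). The difference was -0.208 ± 0.361 residues (exact permutation p = 0.148, adjusted p = 0.445). The central junction had 11.2 ± 0.990 bases in TRBV31 and 11 ± 0.148 bases in other clonotypes (exact permutation p = 0.578, adjusted p = 0.859). The difference of 0.220 bases depends on the consensus. It was 0.403 with a consensus share of 50% and 0.660 with 60% (exact permutation p = 0.367 and 0.125). Each share applies to the clonotypes that match up to that base. All 13 bases of the TRBV31 start were present in 79 of 137 clonotypes (57.7%), and the rest had lost bases at that end. By day, mean CDR3 length was 13.6 ± 0.343 residues at day 5 and 13.9 ± 0.217 at day 14 (exact permutation within genotype, p = 0.222), and the central junction 10.7 ± 1.25 and 11.7 ± 0.412 bases (p = 0.278, exact permutation).

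**Figure D4:**
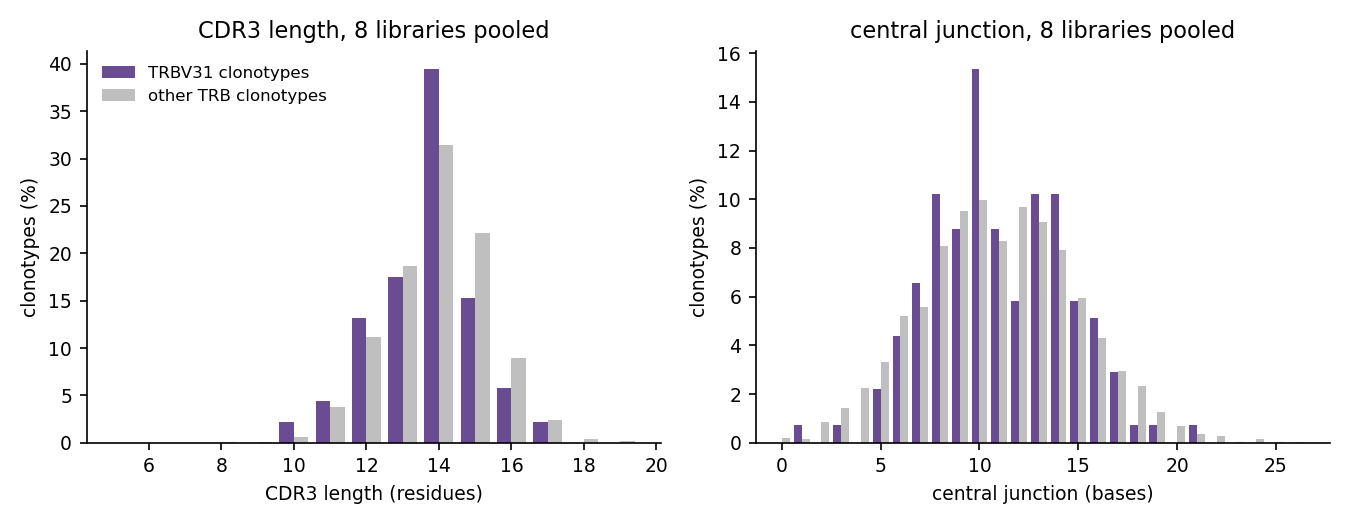
Share of clonotypes (vertical axis, percent) by CDR3 length in residues (left) and by central junction length in bases (right), over the 8 libraries pooled, purple for TRBV31 (137 clonotypes) and grey for other TRB chains. The TRBV31 peak at 14 residues, 39.4%, falls on the peak of the other chains, 31.5%.

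TRBV31 was the beta chain of 7 iNKT-type cells, all from day 5. Such cells are known in mice for a restricted set of beta V segments that pair with their invariant alpha chain. An alpha chain was listed for 120 of the 146 TRBV31 cells (82.2%). At day 5 iNKT-type cells were 4 of 22 and 0 of 17 TRBV31 cells with both chains in CON, and 1 of 21 and 2 of 18 in KO. Of other TRB cells at day 5 with both chains, 26.7% to 31.6% were iNKT-type. At day 14 none of the 42 TRBV31 cells with both chains was iNKT-type, which allows a share of up to 7.14%, and 3.34% to 5.48% of the others were. At day 14 the low TRBV31 counts alone could give 0, so a difference there was not detectable at this depth. At day 5 the value for TRBV31 was lower in 4 of 4 libraries, a number too small for a test to reach 0.05, so no p is given. There was no MAIT-type cell (TRAV1 joined to TRAJ33, mucosal-associated invariant T) among TRBV31 cells.

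The 7 iNKT-type TRBV31 cells were each a clonotype of their own. A pair from day 5 CON replicate 1 is shown, since they share J segment and junction length, followed by a KO one.
day 5 CON replicate 1, TRBJ2-7: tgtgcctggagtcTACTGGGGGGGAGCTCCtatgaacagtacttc
day 5 CON replicate 1, TRBJ2-7: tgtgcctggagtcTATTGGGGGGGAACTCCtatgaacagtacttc
day 5 KO replicate 1, TRBJ1-2: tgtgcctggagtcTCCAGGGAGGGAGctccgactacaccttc
Among the 114 TRBV31 clonotypes with an alpha chain, the most frequent alpha V segments were TRAV4-4 (9 clonotypes, 7.89%), TRAV13-1 (8, 7.02%), TRAV14-3 (8, 7.02%), TRAV11 (7, 6.14%) and TRAV4-3 (5, 4.39%). Of 3000 other clonotypes these took 2.80%, 3.20%, 3.37%, 21.0% and 1.70%. The most frequent alpha J segments were TRAJ18 (10 clonotypes), TRAJ31 (6) and TRAJ12 (5). All 10 clonotypes with TRAJ18 and all 7 with TRAV11 were from day 5. These pairings are counts without a test. The large TRAV11 share of the other clonotypes lowers their shares of the remaining segments. The segments listed were also picked for being frequent with TRBV31, so the percentages are not read as a preference. A second productive TRB chain was found in 1 of the 146 cells, and TRBV31 was the second chain of 3 further cells.

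Contigs called non-productive, which give no complete reading frame as assembled, were listed for some called cells beside the productive chain. A contig can get that call from an out-of-frame joint or from incomplete assembly, and 38 of the 50 TRBV31 ones were full length. The TRBV31 share of these contigs was above its share of productive chains. Of 633 non-productive TRB contigs with a V and a J call, 50 (7.90%) were TRBV31, in 47 cells. At day 5 the share was 12.2% (6 of 49 contigs, exact 95% binomial interval 4.63% to 24.8%) and 10.3% (8 of 78) in CON, and 6.56% (4 of 61) and 9.62% (5 of 52) in KO. At day 14 it was 7.63% (10 of 131) and 4.26% (6 of 141) in CON, and 2.82% (2 of 71) and 18% (9 of 50) in KO. It was above the share of productive TRB cells in 8 of 8 libraries, by 1.72 to 16.8 percentage points, with means of 8.92% ± 4.81 and 2.82% ± 1.66 (SD, n = 8). Since the productive share is a value that chose the segment, and is low at day 14, this difference is a description with no test. In the 4 day 5 libraries alone its mean was 5.37 percentage points. The largest gap was that of day 14 KO replicate 2, and without it the mean difference over the other libraries was 4.58 percentage points.

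Clones can list the same non-productive chain several times. In day 14 CON replicate 1, 4 of the 10 contigs sat in cells of 1 TRBV3 clonotype. With each rearrangement counted once per clonotype there were 41 TRBV31 rearrangements of 460 (8.91%), and the share per library was 3.92% to 17.8%, above the TRBV31 share of productive clonotypes in each library. By mean share of non-productive contigs TRBV31 ranked second of 22 TRBV names, after TRBV10 (11.3%). As a ratio of non-productive to productive share it had 3.16, and among 20 TRBV names with 40 or more productive cells TRBV15 (4.03) and TRBV10 (3.72) were higher. TRBV23, with 39 cells, had 11.7. RefSeq lists Trbv10 as a V segment pseudogene, yet 185 cells had a productive TRBV10 chain. Trbv29 is listed as a pseudogene too, with 234 cells of a productive TRBV29 chain and a ratio of 0.501. On counts pooled over libraries TRBV12-2 (3.36) was also above TRBV31 (3.12). TRBV12-2 had 69 non-productive contigs and 187 productive cells, while the joined call TRBV12-2+TRBV13-2 had 8 and 734. The ratio of TRBV12-2 may therefore depend on which name a contig was given. A high ratio was not limited to TRBV31, since TRBV15 and TRBV10 had higher ones. Between days the share of non-productive contigs was 9.67% ± 2.36 (SD, n = 4) at day 5 and 8.18% ± 6.85 at day 14, a difference within the spread (exact permutation within genotype, p = 0.833; the smallest possible is 0.0556). KO and CON had 9.25% ± 6.46 and 8.60% ± 3.46 (exact permutation within day, p = 1).

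**Figure D5:**
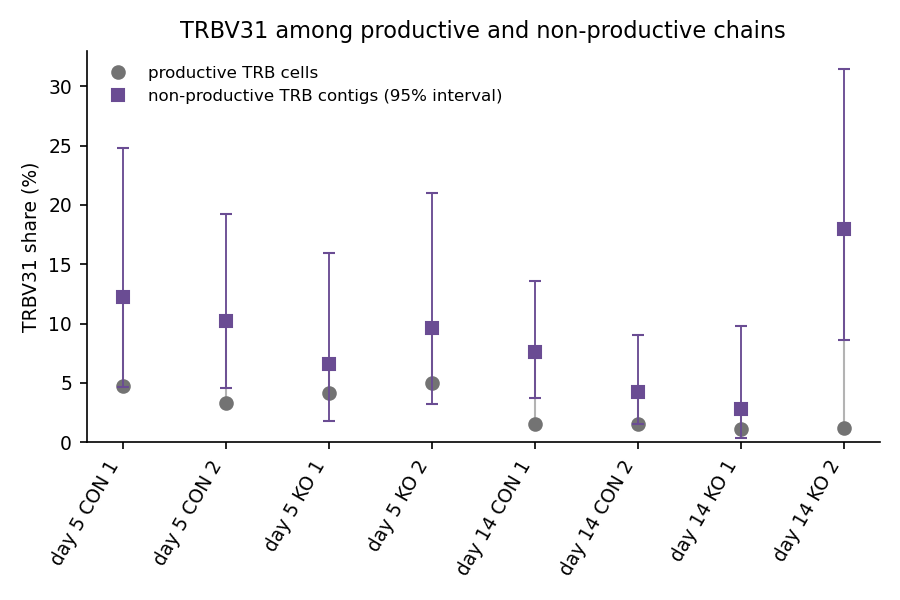
TRBV31 share in percent (vertical axis) of productive TRB cells (grey circles) and of non-productive TRB contigs (purple squares, with exact 95% binomial intervals) in each library (horizontal axis). The squares lie above the circles in 8 of 8 libraries, and day 14 KO replicate 2 stands highest at 18%.

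A shifted reading frame was the commonest listed form of these chains. Of the 50 contigs, 25 (50%) had a CDR3 that starts 2 bases downstream of the V frame, 4 (8%) one in the V frame, 1 another start, and 20 (40%) had no CDR3 listed. Of 583 non-productive contigs of other V segments, 171 (29.3%) had the shifted start and 142 (24.4%) the V frame. These are shares of contigs, and a rearrangement can be listed more than once. The 50 contigs held 41 rearrangements and the 583 held 419. The first example below was itself listed in 2 contigs. In these examples the lower case start lacks the first 2 bases of the TRBV31 start printed above, and capitals mark the central junction.
day 5 CON replicate 1, TRBJ1-3: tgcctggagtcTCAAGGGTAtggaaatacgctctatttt
day 14 CON replicate 2, TRBJ1-4: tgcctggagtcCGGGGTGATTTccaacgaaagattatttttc
day 14 KO replicate 2, TRBJ2-3: tgcctggaCTGGAAagaaacgctgtatttt
With those 2 bases back, the distances from the V cysteine codon to the CDR3 end are 41, 44 and 32 bases, none a multiple of the codon length, so V and J are out of frame. The second of these was listed in 2 cells of 1 productive clonotype (TRBV2 with TRBJ2-4), and the last in 2 cells of a TRBV29 clonotype with TRBJ1-6.

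Pooled over libraries, the TRBJ1 share of non-productive chains was higher for TRBV31 than for other segments, with intervals that overlapped. TRBJ1 segments were found in 22 of 41 TRBV31 rearrangements (53.7%, exact 95% binomial interval 37.4% to 69.3%) and in 149 of 419 of the other segments (35.6%, 31% to 40.4%), each rearrangement counted once. These pooled counts are a description without a test, since a library held 2 to 8 TRBV31 rearrangements. By library the TRBJ1 share varied widely for TRBV31, at 55.7% ± 33.6, beside 35.7% ± 3.84 for the other segments (SD, n = 8). The cells with a non-productive TRBV31 contig had productive chains of 18 TRBV names, with TRBV31 in none of them, and 3 of the 47 had no productive TRB chain. TRBV31 held only 2.53% of all TRB cells, so its absence from so few cells is not read as a result. Of the 20 day 5 cells with a non-productive TRBV31 contig, 5 were iNKT-type, beside 534 of all 2334 TRB cells at day 5, a similar share. In the other direction, a non-productive TRB contig was listed in 11.7% ± 6.81 of TRBV31 cells and 9.84% ± 3.19 of other TRB cells (SD, n = 8; exact permutation p = 0.555, adjusted p = 0.859). The median UMI count of the productive chain was 9.69 ± 4.11 for TRBV31 and 10.1 ± 1.25 for other cells, as means of library medians (SD, n = 8; exact permutation p = 0.844, adjusted p = 0.859), a difference within the spread.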

How the data were processed

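Each deposited table lists assembled receptor contigs with a cell call, chain, V, D and J names, CDR3 sequence and, per the file headers, whole-number counts of UMIs and reads; contig lengths were not used. Tools named in the submitters' processing notes, without their roles, are Cell Ranger 3.1.0, CASAVA 1.8, Seurat 4.0.0 and R 4.1.2, with the build GRCm38 (mm10). The 8 single-cell RNA samples were not analysed here. Alpha V names that differ only by a D or N copy letter or by a suffix that starts with -DV were merged. A name such as TRAV4-4 or TRAV11 therefore covers its copies. Chains were high-confidence productive contigs of called cells, and where a cell had several TRB chains the one of highest UMI count was used. Segment counts of cells were tested with edgeR 4.0.16 (quasi-likelihood, R 4.3.3) over all 98 segments with 40 or more cells, with the library's TRA or TRB cells as offset and Benjamini-Hochberg adjustment; the fit was tested on simulated data. DESeq2 1.42.0, TMM factors and other filters were alternatives. TRBV31 was compared with other chains within each library by exact two-sided sign permutations over 8 libraries (scipy 1.17.1), adjusted over 6 measures or 12 TRBJ segments, and between days or genotypes by 36 exact relabelings. The consensus used for central junctions took each next base held by 70% or more of the clonotypes still matching. At least 20 such clonotypes were needed, and the 70% was set after seeing the data. No doublets were removed from the values given first; 1 TRBV31 cell was a possible doublet (2 or more productive TRB or 3 or more TRA chains). Positions are from RefSeq (GRCm38).

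The iNKT-type share and the excess among non-productive contigs were planned as tests too, but are given without one: zero counts at day 14 fix the sign of the first, and the second subtracts a share that chose the segment. Zero counts also occur among the single TRBJ partners, whose p-values are printed with that limit.

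The segment, the measures and the lists were chosen with earlier results of these data known. The text names the 3 TRBJ segments of largest difference, the 5 TRAV and 3 TRAJ most frequent with TRBV31, its neighbours by share and position, the 3 TRBV segments of most similar share, and the largest clonotypes; other segments that mark the ends of an order were chosen after their values were seen.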

Additional observations from a re-analysis of the deposited data

Results flagged for a closer look

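Gaps between 1 library and the rest were checked for 30 sets of values, and 2 stood out, about what chance gives at 1 in 20. The excess of TRBV31 among non-productive contigs was 16.8 percentage points in day 14 KO replicate 2 and 1.72 to 7.47 in the other libraries. The central junction of TRBV31 clonotypes was shorter than that of other clonotypes by 2.04 bases in day 5 KO replicate 2 (a difference of -2.04), and the other libraries differed by -0.328 to 1.14 bases.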

How the results depend on the processing

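TRBV31 counts are small, at 6 to 28 cells per library, and this limits every share. The higher TRBJ1 share (12.9 to 17.1 percentage points) kept its direction under all alternatives run. The lower iNKT-type share (-14.9 to -10.8) and the excess among non-productive contigs did too, but this is no check of them. Zero counts at day 14 fix the sign of the iNKT-type difference there. The excess subtracts a share that chose the segment, and was 5.37 points in the 4 day 5 libraries alone. The unadjusted exact permutation p of the TRBJ1 share was 0.0078 to 0.0234. The 0.0234 was that of cells in place of clonotypes, with a difference of 12.9 points. With 1 library left out the exact permutation p was 0.0156, the smallest possible there. Neither of these would pass an adjustment over 6 measures. The day contrast of TRBV31 cells was -1.42 (log2) with TMM factors, and -0.69 over clonotypes in place of cells, and ran from -1.81 to -1.55 with 1 library left out; the expanded share at day 14, -50 points against other cells, was -15.6 with each clonotype counted once. With 1 library left out, KO against CON ran from -0.060 to 0.48 at day 5 and from -0.24 to 0.024 over both days (log2), CDR3 length from -0.277 to -0.106 residues (lowest exact permutation p = 0.0312, without day 14 KO replicate 1), the central junction from 0.0878 to 0.543 bases (lowest exact permutation p = 0.0312, without day 5 KO replicate 2), the TRBD1 share from -8.58 to 6.24 points, cells with a non-productive contig from -0.194 to 3.74 points, median UMIs from -1.71 to 0.357, and the day contrast of non-productive contigs from -5.29 to 2.30 points. That contrast was 0.470 with each rearrangement counted once and 1.42 for full-length contigs, and the TRBD1 share was 7.06 points higher without iNKT-type cells. The values of the preceding sentence passed no test, and their cause was not tested. The exact permutation p of 0.0312 for CDR3 length and for the central junction was under 0.05, but unadjusted and reached only with 1 given library left out. Replicate numbers did not pair the libraries (correlations of deviations from -0.11 to 0.07 over 6 pairs of groups); with the replicate block the KO contrast was 0.20 for day 5, -0.37 for day 14 and -0.06 over the 2 days together, the interaction -0.57 and the day contrast -1.64, and no call changed. The consensus shares of 50% and 60%, counting each rearrangement once, full-length contigs and day 5 libraries alone were chosen after seeing the data.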
